A study of Danio rerio with 3 samples.

Results

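Integrins and cadherins, the receptors that attach cells to matrix and to each other, were read from single endothelial-reporter cells of the zebrafish anal fin. The members were the 44 rows, of 25839 in the count tables, whose names begin with itga, with itgb and a number, or with cdh and a number. The rule left out cdh5, the VE-cadherin gene, which serves below as a comparison gene. They comprised 17 alpha subunits, 9 beta subunits, 17 cadherins and itgb1bp1, which encodes a protein that binds an integrin tail and is no subunit. Of the 44, 35 had a UMI (a unique molecular identifier, counting 1 captured transcript) in a well that the authors analysed.

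All wells belong to 1 group without treatment, mutant or control: dsRed-positive cells of a fli1a reporter, sorted from fins of immature zebrafish at stage II-III. The labels of each of the 3 plates of 384 wells name 80 dissected fins and do not say whether the plates had separate pools, and the plates are the replicates here. The series title concerns blood vessels that form from lymphatic vessels. The comparison therefore set wells of at least 500 UMIs with at least 5 UMIs of aqp8a.1, a water channel gene used here as a blood-vessel marker, against wells with a UMI of lyve1a, a lymphatic hyaluronan receptor gene.

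An integrin is a pair of an alpha and a beta subunit. The alpha subunit largely sets the ligand, and the beta tail recruits talin and kindlin, which link the pair to actin. Classical cadherins bind the same or related cadherins on a neighbouring cell and hold actin through catenins, and VE-cadherin is the main cadherin of endothelial junctions.

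The authors' list held 384, 384 and 268 wells of plates 1, 2 and 3, with medians of 1064.5, 914.5 and 382 UMIs per well, and 672 listed wells had at least 500. All 384 cell barcodes are shared by the 3 plates, since they mark well positions. Endothelial markers were present: of 12 such genes 11 had a row, 1 of these, etv2, was at 0, and their summed level was between 2826 and 7173 CPM (UMIs per 1000000 UMIs of the wells summed) in every class and plate. Markers of other cells were present too. The level of 11 keratinocyte genes was 8138 ± 1207 CPM in aqp8a.1-high wells and 7811 ± 1216 in lyve1a-positive wells (SD, n = 3 plates), while 7 of 8 lymphocyte genes were at 0. Nearly all of the keratinocyte sum came from krt8, icn and krt4, with 4580, 4327 and 817 UMIs. Other genes of that list were low, with 28 UMIs for epcam, 9 for krt5 and 7 for tp63. Transcripts free in the cell suspension can add UMIs to any well, no wells are marked as empty, and the part of such transcripts in the levels below was not tested.

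The members gave 2763 UMIs, and a single gene, cdh6, gave 70.2% of them. Detection was broad but thin: 79.5% of members had a UMI, against 61.3% of all rows, while 20.5% reached 30 UMIs, against 16.7% of all rows. A stricter condition of at least 2 UMIs in at least 2 plates was met by 23 members. The 9 rows at 0 were itga3a, itga10, itga11a, itga11b, itgb8, itgb1bp1, cdh15, cdh16 and cdh18a. A count of 0 in these wells allows a level of up to 2.53 CPM. Intervals and such limits cover counting error only. Because the method counts tags at the 3' end of transcripts, levels of different genes are given as CPM without scaling by length.

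**Figure D1:**
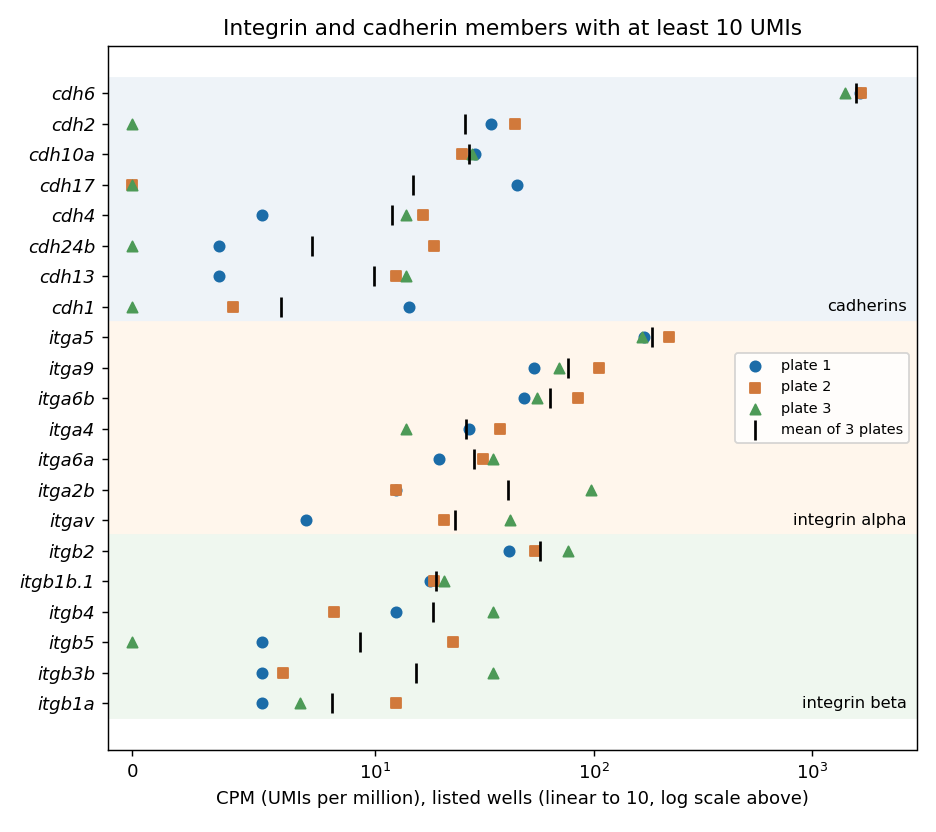
Level of each member with at least 10 UMIs in the authors' listed wells, in CPM (linear to 10, log scale above), with a point per plate and a bar at the mean. The points for cdh6 sit between 1420 and 1676, far above those of itga5, the next gene, between 166 and 220.

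Among the alpha subunits, itga5 led. It encodes the alpha subunit of the classical fibronectin receptor, and its 225 UMIs were 43.3% of all alpha UMIs. Its level was 170, 220 and 166 CPM in plates 1, 2 and 3 (185 ± 30.2), with a UMI in 20.1%, 17.7% and 7.84% of listed wells. The 3 plates lay close together in level, and the lower share of wells in plate 3 came with its shallower wells.

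The next alpha genes were itga9 and itga6b. The product of itga9 binds fibronectin and tenascin and is known from mouse to be needed for lymphatic valves, and the gene had 53.6, 106 and 69.2 CPM. The product of itga6b, a laminin receptor subunit, had 48.3, 85.2 and 55.4. Both genes were highest in plate 2. Their ranges overlapped, while itga9 was above itga6b in 3 of 3 plates.

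The paralogous laminin receptor gene itga6a had 19.7, 31.2 and 34.6 CPM. The gene itga4, whose product binds fibronectin and the vascular adhesion molecule VCAM, had 26.8, 37.4 and 13.8. These levels overlapped too. Reads of itga6a and itga6b could be split wrongly where the copies are alike, since the counting rule for shared reads is not given in the sources used here. The other 8 detected alpha genes had 1 to 27 UMIs, and itga2b and itgav were the only ones among them with more than 5.

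UMIs of beta subunits were few, and whether the capture of transcripts differed between genes was not tested. The 8 detected beta genes gave 136 UMIs together, against 520 for the alpha genes, and 60 of them, or 44.1%, were of itgb2, the beta subunit of leukocyte integrins. The level of itgb2 was 41.1, 54.0 and 76.2 CPM. The common partner of most alpha subunits seen here is beta1, yet itgb1b.1 had 22 UMIs (17.9, 18.7 and 20.8 CPM) and itgb1a had 10 (5.36, 12.5 and 6.92 CPM). These 2 genes, the only beta1 subunit rows among the members, were thus below itga5 in each plate, and itgb1b.1 differed little between plates. A beta1 copy without a row of its own would not be counted here. The other detected beta genes were itgb4, known from hemidesmosomes, with 16 UMIs, itgb5 with 14, itgb3b with 11, itgb6 with 2 and itgb7 with 1.

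Among cadherins, cdh6 held 1939 of 2107 UMIs, or 92.0%. It encodes a type II classical cadherin known from kidney and neural crest development. Its level was 1657, 1676 and 1420 CPM (1584 ± 143), and it ranked 106 among all rows by UMIs. For comparison, cdh5 had 404, 480 and 485 CPM, below cdh6 in every plate. A cdh6 UMI was found in 62.5%, 60.7% and 35.8% of the listed wells of plates 1, 2 and 3.

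The 2 other cadherins with at least 30 UMIs were cdh2, encoding N-cadherin, and cdh10a, encoding another type II cadherin. For cdh2 the levels were 34.0, 43.6 and 0 CPM, and the count of 0 in plate 3 allows up to 20.8. The gene cdh10a was even across plates, at 28.6, 24.9 and 27.7. The remaining 11 detected cadherins had 1 to 25 UMIs. The upper-case row CDH18, which the rule does not take, had 3 UMIs, and the other 7 upper-case integrin or cadherin rows were at 0.

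Several low members were concentrated in wells with transcripts of other cell types. The gene itga2b, whose product forms the platelet fibrinogen receptor and which marks zebrafish thrombocytes, had 7, 6 and 14 UMIs in plates 1, 2 and 3, in 16 wells, 8 of them of plate 3. Another thrombocyte marker was present in 75.0% of those wells and in 6.96% of the others, and the summed level of 7 thrombocyte genes was 2852 against 107 CPM. These 16 wells held 1.09% of all listed UMIs and 15 of the 43 UMIs of gp1bb, a platelet glycoprotein gene. For itgb3b, the gene of the matching beta subunit, 5 of 10 wells had a thrombocyte marker.

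The 50 wells with itgb2 had a leukocyte marker in 66.0% of cases, against 39.0% elsewhere, and the level of 26 leukocyte genes was 3675 against 743 CPM. Those wells were also deeper, with a median of 1907 UMIs against 742. The 32 wells with itga4 had a leukocyte marker in 65.6% of cases, against 39.5%, while their summed leukocyte level was 820 against 1053 CPM. The itga4 wells were deeper too, with a median of 1911 UMIs against 744. So the itgb2 wells were higher in both measures and the itga4 wells in the share alone, both at greater depth. The share alone was also higher in wells with itga5, 57.8% against 37.0%, and with cdh6, 49.7% against 28.9%. Their leukocyte levels were 534 against 1235 and 978 against 1221 CPM, and these wells were deeper too. Of the 1231 UMIs of the leukocyte genes, 405 were of srgn. Wells with cdh11 or cdh2 were not higher in the level of 13 fibroblast and mesenchyme genes. It was 61.5 against 265 CPM for cdh11 wells and 251 against 263 for cdh2 wells. The share of wells with a marker of that list was higher for cdh2, 30.6% against 16.5%. The cdh2 wells were deeper, with a median of 1990.5 UMIs against 746. For cdh11 the share was 16.7% against 17.0%.

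The intestinal and pronephric cadherin gene cdh17 came mostly from a single well. Of its 25 UMIs, all in plate 1, 21 lay in a well of 9496 UMIs, which also held 6 of the 10 UMIs of cdh1, the E-cadherin gene. That well had 117 UMIs of atp1a1a.1 and 111 of atp1b1a, both genes of sodium pump subunits, and none of cdh6 or cdh5. It met both class conditions, with 5 UMIs of aqp8a.1 and 1 of lyve1a, and so entered neither class of the contrast below.

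UMIs of cdh6 also occurred in wells marked by at least 3 UMIs of another cell type's genes. It was present in 31 of 43 neutrophil-marked wells at 1402 CPM, in 13 of 18 fibroblast-marked wells at 1028, and in 9 of 12 erythroid-marked wells at 1102. Wells outside each of these sets had it in 54.2% to 54.7% of cases at 1644 to 1664 CPM, with medians of 742 to 761 UMIs per well against 954.5 to 2736. Macrophage-marked wells had it in 2 of 10 cases, at 348 CPM against 1665 elsewhere. Muscle-marked wells had it in 8 of 9 cases, with a summed level of 1713 CPM, from 31 UMIs, against 1635 elsewhere. Thrombocyte-marked wells had it in 5 of 16 cases, at 2317 CPM, from 34 UMIs, against 1627 elsewhere. Thus 4 of these 6 sets were below the level elsewhere and 2 were above it. Some marking genes were also read in the vessel classes. In aqp8a.1-high and lyve1a-positive wells, srgn of the neutrophil list stood at 305 and 314 CPM, and sparc of the fibroblast list at 174 and 35.8. The mark alone therefore does not identify a cell type, least of all in deep wells. The part of free transcripts, or of more than a single cell in a well, in these cdh6 counts was not tested.

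Of the 672 wells, 160 were aqp8a.1-high without lyve1a (69, 71 and 20 in plates 1, 2 and 3), 186 were lyve1a-positive with fewer than 5 aqp8a.1 UMIs (92, 67 and 27), 99 met both conditions and 227 met neither. Lymphatic markers summed to 6499 ± 550 CPM in lyve1a-positive wells and 889 ± 121 in aqp8a.1-high wells, and blood endothelial markers to 5458 ± 81.8 and 23254 ± 2176, with the defining genes included. Of these sums lyve1a gave 2730 in lyve1a-positive wells and aqp8a.1 gave 15598.5 in aqp8a.1-high wells, which the class rule itself sets. Among the other markers, mrc1a stood at 642 and 74.0 CPM and aqp1a.1 at 160 and 1182. The blood marker vsg1 went the other way, at 2910 and 2649. Neutrophil markers reached 1395 ± 1772 in lyve1a-positive wells, through plate 3, and 452 ± 146 in aqp8a.1-high wells. Erythroid markers were at 77.2 ± 102 and 474 ± 467. A fit that left out wells with at least 3 UMIs of erythroid, thrombocyte, fibroblast, mural, osteoblast, muscle, pigment or neural genes is given below. Those are the wells marked by other cell types in that fit, which removed no well for neutrophil, macrophage or keratinocyte markers. The fit kept 50, 58 and 16 aqp8a.1-high wells and 62, 47 and 23 lyve1a-positive wells of plates 1, 2 and 3. A mural gene in its rule, rgs5b, had 645 UMIs. It stood at 579 ± 106 CPM in aqp8a.1-high wells and 635 ± 49.3 in lyve1a-positive wells. Whether results changed in that fit through the cell types removed or through fewer wells was not tested. Leaving out wells with leukocyte markers was a separate setting.

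No member passed the test between the classes. The members had too few UMIs for most to be tested: 2 of 44, cdh6 and itga5, passed the filter on low counts, and 0 of these were called by edgeR's quasi-likelihood test at an adjusted p under 0.05, against 7.87% of the 1842 genes tested (4.45% higher in aqp8a.1-high wells and 3.42% higher in lyve1a-positive wells, 82 and 63 genes). At an unadjusted p under 0.05, 1 of the 2, cdh6, passed, and 328 genes did in all. DESeq2 also called 0 members. A p here sets the class difference against a variance between 3 plates, which may be technical, estimated by sharing information over genes. In the edgeR fit of the classes, a gene's own spread between plates carried almost no weight beside the shared variance.

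The level of cdh6 was lower in aqp8a.1-high wells in each plate without passing the test. It was 1593, 1550 and 797 CPM in aqp8a.1-high wells of plates 1, 2 and 3 (1314 ± 448) and 1852, 2088 and 1515 in lyve1a-positive wells (1818 ± 288). The ranges of the classes overlapped, because the lyve1a-positive wells of plate 3 were below the aqp8a.1-high wells of the other plates. The fitted log2 difference, aqp8a.1-high minus lyve1a-positive, was -0.36 (SE 0.16, 95% interval -0.68 to -0.04, adjusted p = 0.204 by edgeR). Without wells marked by other cell types it was -0.20 (adjusted p = 0.707 by edgeR). Wells meeting both conditions had 1545 ± 184 and those meeting neither had 1610 ± 80.7, between the means of the 2 classes. With wells thinned to 500 UMIs, 42.1 ± 6.23% of aqp8a.1-high and 53.9 ± 8.27% of lyve1a-positive wells had a cdh6 UMI, and as counted the shares were 58.6 ± 7.66% and 76.0 ± 14.5%.

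In finer bins of the markers cdh6 did not change evenly. Wells with 4 or more lyve1a UMIs had 2071, 1849 and 1926 cdh6 CPM in the 3 plates, and wells without lyve1a had 1563, 1625 and 1391. Those ranges did not overlap. Wells with 1 lyve1a UMI, at 1409, 1373 and 1772, overlapped with wells without it, and wells with 2 or 3 varied from 318 to 2133. Wells with 20 or more aqp8a.1 UMIs had 1458, 1152 and 1418, and wells with 1 to 4 had 1693, 1900 and 1778. Wells without aqp8a.1 had 1850, 1915 and 1293, overlapping with the wells of 20 or more through plate 3. The bins from 5 to 19 varied from 979 to 1986. The class border was read in wells of at least 500 UMIs without lyve1a, summed over plates. There 15 wells with 4 aqp8a.1 UMIs had 1019 cdh6 CPM, from 19 UMIs, and 16 wells with 5 had 1953, from 50 UMIs. Wells without a lyve1a UMI among those with fewer than 5 of aqp8a.1 had 1610, and those with 1 lyve1a UMI had 1645. The 68 wells closest below the depth minimum had 1545, and the 61 wells closest above it had 1727.

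For itga5 no difference between the classes was detectable at this depth. The levels were 204, 276 and 149 CPM in aqp8a.1-high wells (210 ± 63.7) and 217, 217 and 185 in lyve1a-positive wells (206 ± 18.5). The fitted log2 difference was 0.13 (SE 0.36, 95% interval -0.57 to 0.84, adjusted p = 0.910 by edgeR), and its sign changed under several other settings. The interval includes changes in both directions.

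The other members were too low for the test and are described by their levels. The gene itga9 had 59.6, 49.4 and 0 CPM in aqp8a.1-high wells, from 12 UMIs, and 61.2, 153 and 73.9 in lyve1a-positive wells, from 32. Its classes did not overlap, but they were almost level in plate 1, and the ratio of summed counts was 0.521 with a counting interval of 0.244 to 1.04. For cdh2 there were 3 UMIs against 14, a ratio of 0.297 (0.0548 to 1.07). Both intervals include equal levels.

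The laminin receptor gene itga6b stood at 68.1 ± 38.2 CPM in aqp8a.1-high wells and 63.2 ± 23.1 in lyve1a-positive wells. The paralog itga6a stood at 72.0 ± 69.1, from 10 UMIs, and 10.1 ± 11.3, from 5 UMIs. The gene itga4 was at 24.5 ± 21.4 and 51.6 ± 30.6, cdh10a at 12.7 ± 15.3 and 20.2 ± 22.5, and itgb2 at 44.4 ± 8.97 and 68.9 ± 37.2. The ranges of the classes overlapped for all 5 genes. Summed over all subunits, the alpha level was 457 ± 103 in aqp8a.1-high and 482 ± 106 in lyve1a-positive wells, and the beta level was 104 ± 4.62 and 174 ± 76.0. The beta sums rested on 25 and 46 UMIs. The cadherins other than cdh6 summed to 51.1, 118 and 0 CPM in aqp8a.1-high wells and 156, 169 and 0 in lyve1a-positive wells, from 18 and 49 UMIs. The ratio of these counts was 0.510, with a counting interval of 0.280 to 0.891 that does not hold the spread between plates.

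**Figure D2:**
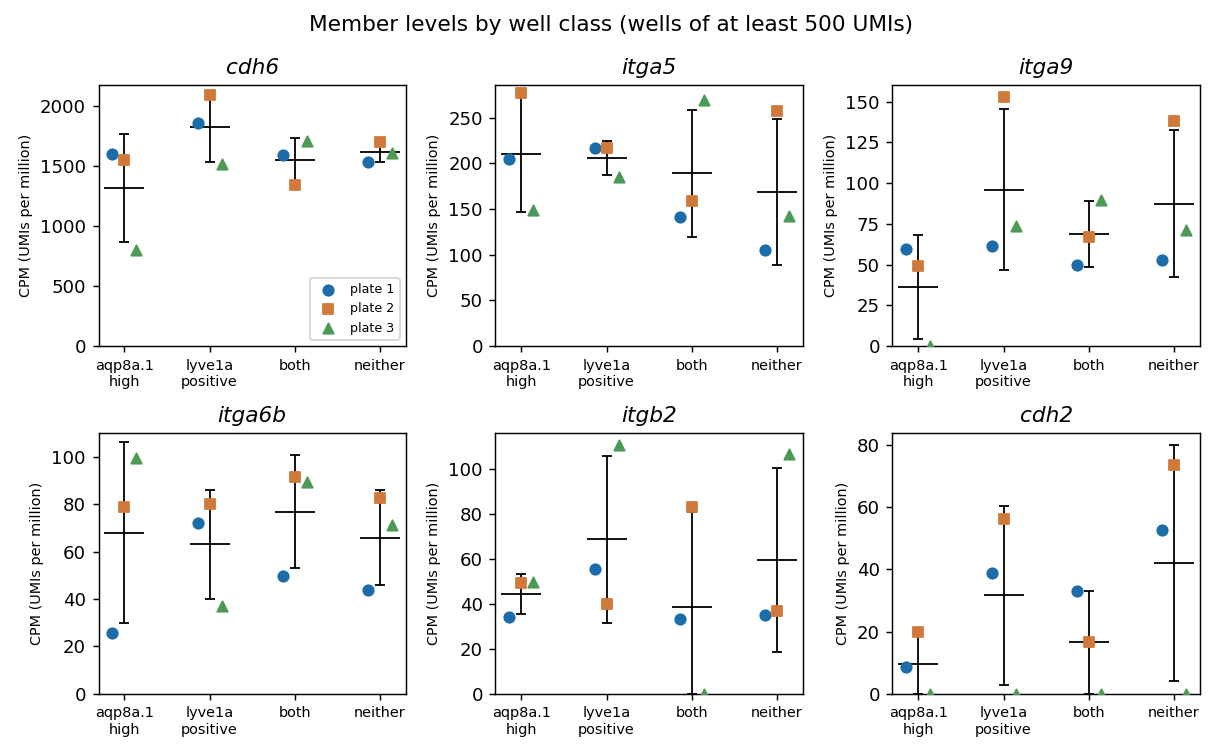
Levels of 6 members in CPM by well class, with a point per plate and a bar and whiskers for the mean and SD, cut off at 0. The cdh6 points of lyve1a-positive wells, 1515 to 2088, overlap with those of aqp8a.1-high wells, 797 to 1593, and the low members vary widely between plates.

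Wells with and without a UMI of cdh5, the endothelial junction gene, differed in cdh6. The contrast was noticed in these data and then measured in them, so its p is no independent support. In wells with a cdh5 UMI (200 wells) cdh6 stood at 1000, 864 and 363 CPM in plates 1, 2 and 3, from 150, 129 and 11 UMIs. In wells without a cdh5 UMI (472 wells) it stood at 1929, 2076 and 1843. The groups did not overlap, and the means were 742 ± 335 and 1949 ± 117.

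The fitted log2 difference, wells with minus wells without cdh5, was -1.24 (SE 0.15, 95% interval -1.56 to -0.93, adjusted p = 1.0e-05 by edgeR), 2.37-fold lower. Of 4 members tested in that comparison 1 was called, cdh6, against 6.19% of 2294 genes called in all with 4.1% higher and 2.09% lower in wells with cdh5. Depth was alike, with medians of 1437, 1381 and 956 UMIs in wells with cdh5 and 1365.5, 1355.5 and 831 in wells without it. After thinning to 500 UMIs, 27.8 ± 7.50% of the former and 57.6 ± 4.08% of the latter had a cdh6 UMI.

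The difference had the same direction in 12 of 12 pairs of class and plate, though the classes share the same 3 plates. In plate 3 the wells with cdh5 held few cdh6 UMIs. These were 2 in aqp8a.1-high wells, 2 in lyve1a-positive wells, 3 in wells meeting both and 4 in wells meeting neither. In aqp8a.1-high wells, cdh6 fell from 2112, 2404 and 1324 CPM without cdh5 to 874, 522 and 211 with it, a log2 difference of -1.75 with an adjusted p of 9.8e-06 by edgeR within that class. In lyve1a-positive wells it was 1899, 2240 and 1795 without cdh5 and 1516, 1175 and 374 with it, a log2 difference of -0.68 with an adjusted p of 0.0863 by edgeR. Whether the size differs between the classes was not tested. Without plate 2 the adjusted p over all wells was 0.0632 and the log2 difference -1.29.

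The well classes themselves differ in cdh5. Its level was 767 ± 192 CPM in aqp8a.1-high and 238 ± 179 in lyve1a-positive wells (log2 difference 2.24, SE 0.28, adjusted p = 7.8e-13 by edgeR), and 42.6 ± 6.75% and 15.3 ± 3.95% of wells had it. Among wells without cdh5, cdh6 was higher in the aqp8a.1-high class in plates 1 and 2 and lower in plate 3, by the values just given. For the integrin genes tested by the presence of cdh5, the log2 differences were 0.22 for itga5 (SE 0.25, adjusted p = 0.691), 0.07 for itga6b (SE 0.42, adjusted p = 0.960) and -0.58 for itga9 (SE 0.42, adjusted p = 0.498), none of them called by edgeR.

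**Figure D3:**
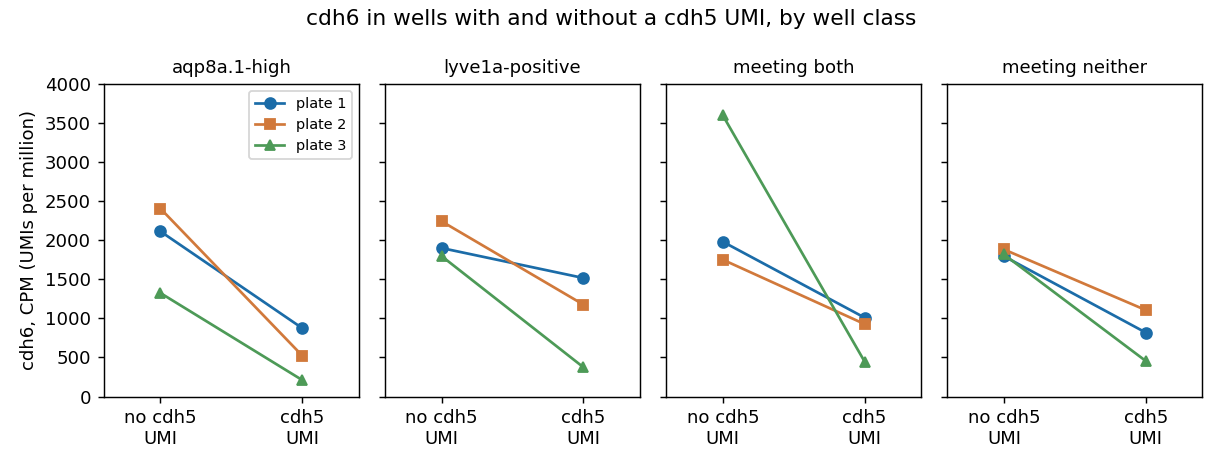
Level of cdh6 in CPM in wells without and with a cdh5 UMI, by well class, with a line per plate. All 12 lines fall, and with all classes together the means are 1949 and 742.

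To see which other genes were found with or without cdh6, 593 genes present in 60 to 600 of the thinned wells were compared, without a test. These genes were picked by their values. The measure was the share of wells with a cdh6 UMI among wells with a gene, minus that share among wells without it, averaged over 3 plates. Its median over the genes was 0.374 percentage points. Thinning gave all wells the same depth, and the genes share the same wells and plates.

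Examples from the low end follow. A cdh6 UMI was found in 22.9% of wells with aqp1a.1, a water channel gene, and in 54.4% of wells without it, and the difference was negative in each plate. The lipoprotein lipase gene lpl had 22.1% and 52.5%, and cdh5 ranked 3 from the bottom with 27.9% and 53.7%. The hypoxia factor gene epas1b had 27.5% and 51.6%.

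From the high end, 75.3% of wells with nrp2a, a neuropilin gene known from lymphatic endothelium, had cdh6, against 47.0% of wells without it. The ephrin gene efnb3a had 68.3% and 45.5%, and the transcription factor gene ebf3a had 64.8% and 42.2%. For flt4, which encodes the receptor of the lymphatic growth factor Vegfc, the shares were 65.6% and 45.0%. Other vessel genes lay between the ends. The mean difference was 11.4 points for mrc1a (SD 2.60), 4.05 for stab1 (SD 9.03, negative in plate 1), -0.90 for kdrl (SD 9.10) and 1.18 for pecam1 (SD 12.0). Among the markers that define the classes, the mean difference was 6.02 points for lyve1a and -6.47 points for aqp8a.1, with SDs over plates of 9.50 and 4.99 points.

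**Figure D4:**
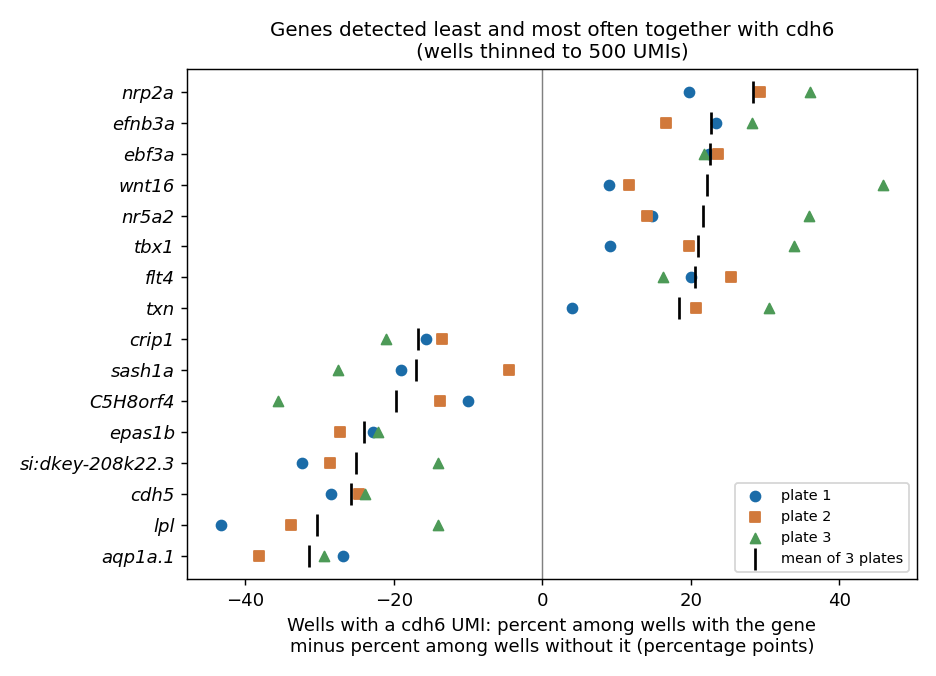
Difference, in percentage points, between the share of wells with a cdh6 UMI among wells with and without each gene, after thinning to 500 UMIs, for the 8 genes at either end of 593. Points are plates and bars are means, from -31.5 for aqp1a.1 to 28.4 for nrp2a.

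Alpha and beta subunits were rarely read together. Of the wells of at least 500 UMIs, 40.5 ± 6.16% had an alpha UMI, 15 ± 1.7% had a beta UMI and 6.77 ± 2.85% had both, which was 49 wells. Beta was found in 14.2%, 21.6% and 13.2% of wells with an alpha UMI in plates 1, 2 and 3. In wells without an alpha UMI the shares were 12.4%, 12.3% and 16.2%.

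Plates 1 and 2 had more beta in alpha wells and plate 3 had less, a mean difference of 2.65 ± 6.22 percentage points, smaller than its spread. Wells with an alpha UMI were deeper, with medians of 1691.5, 1760 and 1069.5 UMIs against 1212, 1072 and 775.5. Thinned to 500 UMIs, beta was found in 7.0 ± 2.0% of wells with alpha and 5.68 ± 0.852% of those without, a difference of 1.31 ± 1.37 points that rests on 8 wells with both. With 3 plates an exact paired permutation test cannot give a p below 0.25, so none was run.

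**Figure D5:**
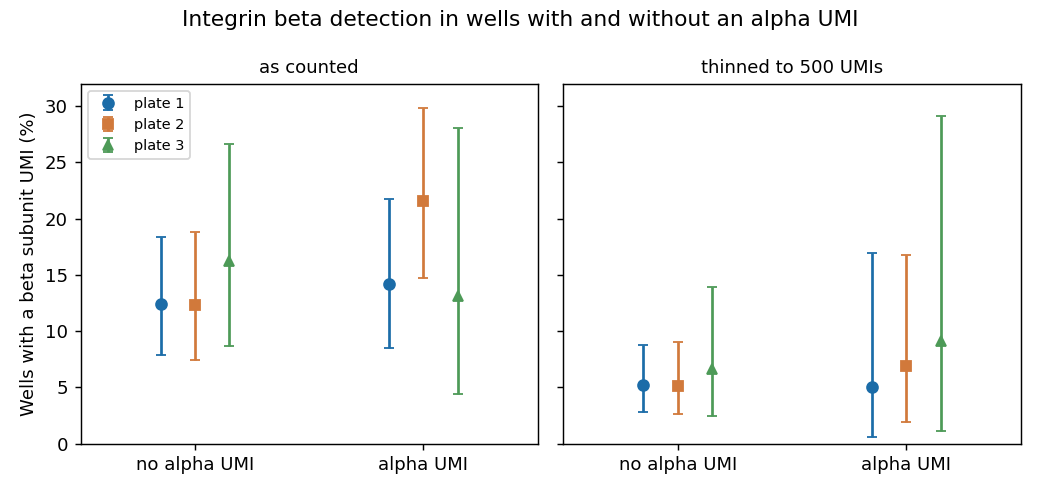
Share of wells with a beta subunit UMI, in percent, among wells without and with an alpha subunit UMI, as counted and after thinning to 500 UMIs. Points are plates and bars are exact 95% binomial (Clopper-Pearson) intervals. The intervals of wells with and without alpha overlap in each plate.

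By class, both kinds of subunit were read in 10.5 ± 5.15% of lyve1a-positive wells and 5.93 ± 2.20% of aqp8a.1-high wells. In wells meeting both conditions it was 7.42 ± 6.57% and in wells meeting neither 3.93 ± 0.678%. After thinning, 5 of 186 lyve1a-positive wells and 0 of 160 aqp8a.1-high wells had both, where a count of 0 allows up to 1.88%. The difference between the classes was not tested.

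Of 30 alpha and beta combinations of detected members that are textbook receptors, 11 were seen in a listed well of any depth. Combinations of any kind seen in a well numbered 35, out of all that the 13 detected alpha and 8 detected beta genes can form. Whether textbook combinations were seen more often than others was not tested. The pair most often seen together was itga5 with itgb2, in 13 wells, followed by itga9 with itgb2 in 11, and neither is a textbook receptor. Wells with itgb2 were deeper, as given above. In wells thinned to 500 UMIs the pair itga5 and itgb2 was read in 0 of 672, which allows a share of up to 0.446%. After thinning, itga5 was read in 26, 24 and 10 wells of plates 1, 2 and 3 and itgb2 in 9, 6 and 3. These counts are small, and the part of depth in this pair was not tested. The fibronectin receptor pair itga5 and itgb1b.1 was read in 6 wells, 3.61% of itga5 wells and 28.6% of itgb1b.1 wells. The pair itga9 and itgb1a was read in 4 wells, and the platelet pair itga2b and itgb3b in 2. In the wells of at least 500 UMIs, 49 of 283 with an alpha subunit had any beta subunit read.

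Ligands and partners of the receptors were taken from hand-written gene lists. Of 39 rows of integrin ligands in the matrix, 8 were tested between the classes, 2 were higher in aqp8a.1-high wells and 1 in lyve1a-positive wells, where 4.45% and 3.42% of all genes were. The collagen IV genes col4a1 and col4a2, of the vascular basement membrane, were the higher ones. The level of col4a1 was 1193, 1698 and 1644 CPM against 818, 723 and 702 (log2 difference 0.98, SE 0.19, adjusted p = 1.4e-05 by edgeR), and its classes did not overlap. For col4a2 the log2 difference was 1.57 (SE 0.43, adjusted p = 0.0062 by edgeR).

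The matricellular gene ctgfa, encoding a growth factor-binding ligand of integrins, was lower, at 76.7, 29.6 and 149 against 217, 273 and 296 (log2 difference -1.88, SE 0.46, adjusted p = 0.0012 by edgeR). This difference was -0.93 without wells marked by other cell types (adjusted p = 0.525 by edgeR) and -0.44 with blood wells taken by other blood markers (adjusted p = 0.928 by edgeR). Without wells of leukocyte markers it was -2.028 (adjusted p = 0.000449 by edgeR). The fibronectin gene fn1a was not called, at -0.96 (SE 0.59, adjusted p = 0.408). The median log2 difference of the 8 genes was 0.21, against -0.01 over all genes tested.

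Of 38 rows of the adhesion complex 10 were tested and 0 were called by edgeR, a number too small to set apart from the 7.87% called among all genes, with a median log2 difference of 0.09. Among them the talin gene tln1 was at 0.42 (SE 0.40), the kinase-like adaptor gene ilk at -0.32 (SE 0.39) and the small GTPase gene rap1b at -0.15 (SE 0.23). The lowest adjusted p was that of the filamin gene flna, 0.0776, with a log2 difference of -0.95 (SE 0.36).

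Of 22 rows of cadherin partners 7 were tested and 2 were higher in aqp8a.1-high wells, against 4.45% of all genes, with a median log2 difference of 0.86. These were cdh5, which the list holds although it encodes a cadherin itself, and ptprb, so that ptprb was the only partner called. The gene ptprb encodes the phosphatase VE-PTP that acts on VE-cadherin. It stood at 264, 425 and 249 CPM against 189, 104 and 148 (log2 difference 1.16, SE 0.36, adjusted p = 0.019 by edgeR). The catenin genes ctnna1 at -0.15 (SE 0.45), ctnnd1 at 0.86 (SE 0.46) and jupa at 0.87 (SE 0.42) were not called by edgeR.

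Of 22 protocadherin rows 4 were tested and 1, pcdh19, was higher in aqp8a.1-high wells, at 179, 365 and 249 CPM against 83.4, 104 and 36.9, where 4.45% of all genes were higher (log2 difference 1.60, SE 0.42, adjusted p = 0.0035 by edgeR). The endothelial protocadherin gene pcdh12 was at -0.06 (SE 0.46) and pcdh17 at 0.33 (SE 0.36). The nuclear RNA malat1, given as a sign of RNA quality, had a log2 difference of 0.29 (SE 0.12, adjusted p = 0.141 by edgeR) in the same comparison.

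The calls of these 5 genes were lost without plate 2, with the direction kept. Without it, edgeR's adjusted p was 0.0795 for col4a1, 0.642 for col4a2, 0.297 for ctgfa, 0.872 for ptprb and 0.251 for pcdh19, with log2 differences of 0.80, 0.89, -1.30, 0.58 and 1.38. Without wells marked by other cell types, the adjusted p by edgeR was 0.345 for col4a2, 0.147 for ptprb and 0.155 for pcdh19, while col4a1 (0.0217) and cdh5 (0.0106) were called. DESeq2 called col4a1 (adjusted p = 0.0311) and cdh5 (adjusted p = 0.000402), and none of the other 4. The call of cdh5 held in 22 of 22 other settings and that of col4a1 in 21, while col4a2, ptprb and pcdh19 were called in 13 each and ctgfa in 15. These counts include the setting without the well richest in cdh17, which removed no well of either class and repeats the main fit.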

How the data were processed

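The authors deposited UMI counts per gene and well for 3 plates of MARS-seq libraries, with no normalization, and lists of the wells they analysed. Bowtie2 and GRCz10 are credited to the submitters' processing notes. How reads were filtered, which annotation was used and how UMIs were collapsed were not given in the sources used. The members, gene lists and class rule were chosen with earlier results of these data known. The comparison of wells with and without cdh5, the scan of 593 genes and some class definitions were added after values had been seen.

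UMIs were summed per plate and class (1036 listed wells, minimum 500 UMIs), given as CPM (UMIs per 1000000), and compared by edgeR 4.0.16 under R 4.3.3, using TMM scaling, its expression filter, the quasi-likelihood F-test and Benjamini-Hochberg adjustment over all genes tested. aqp8a.1 and lyve1a, which define the classes, were not counted as calls. Plate was a block because both classes of wells come from the same plate. DESeq2 1.42.0 was an alternative. Plates held 559559, 481392 and 144408 listed UMIs. The labels do not say whether plates came from separate fish. With plate as a block, p-values set a difference between groups of wells against a variance between 3 plates, which may be technical. The variance was estimated by sharing information over genes. In the edgeR fit of the classes the shared variance all but replaced a gene's own spread between plates, and in the fit by cdh5 it did so less. Members with at least 30 UMIs were named, list genes when called or among the most abundant, and others by their values. Doublets were not called. On simulated counts of the class comparison (1869 genes), 99 of 100 genes changed 3-fold and 33 of 100 changed 1.5-fold were recovered, with 1 of 1669 unchanged genes called. The simulation had no plate effect and a biological coefficient of variation, the spread between replicates beyond counting error, of 0.1. Its changed genes were drawn from the more abundant ones. Recovery and false calls for lower or noisier genes were not measured.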

Additional observations from a re-analysis of the deposited data

Results flagged for a closer look

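Plate 3 has 116 wells that are not on the authors' list, with 76768 UMIs and a median of 296.5 UMIs per well. These wells were left out of the main comparisons. Adding them was an alternative setting, with 199 genes called between the classes and a joint detection difference of 3.79 points. They hold more UMIs of 9 members than the 3 that a count of 0 would allow. The off-list wells had 101 UMIs of cdh6, at 1316 CPM beside 1420 in the listed wells of the plate. They had 10 UMIs of itga5, at 130 CPM beside 166, 7 of itga6b, 5 of itga9 and 4 of itgav. They also had 7 UMIs of itgb2, 4 of itga2b and 4 of itgb3b. The mesenchymal cadherin gene cdh11 had 8 UMIs there, from 2 wells, at 104 CPM beside 13.8 in the listed wells.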

How the results depend on the processing

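No member was called between the classes under 21 of 22 other settings. The exception, chosen after seeing the data, defined lymphatic wells by mrc1a or stab1 and gave cdh6 a log2 difference of -0.669 (adjusted p = 0.000745 by edgeR). Among the 21, leaving out the well with most cdh17 removed no well of either class, so that setting repeats the main fit and adds no support. Over the others its adjusted p ran from 0.0723 to 0.831 with the same sign, and leaving out a plate gave -0.488 to -0.271. The itga5 difference, 0.134, ran from -0.077 (without replicate 2) to 0.273 when a plate was left out, and turned to -0.010 with an aqp8a.1 minimum of 3, -0.082 with a lyve1a minimum of 2, -0.094 with wells meeting both counted as aqp8a.1-high and -0.089 with mrc1a or stab1, and the cause was not tested. The 145 genes called became 40 with DESeq2, 80 without the filter, 90 in wells of at least 1000 UMIs, 33 with an aqp8a.1 minimum of 3, 76 or 66 with wells meeting both added to the aqp8a.1-high or lyve1a-positive class, 25 after thinning, 38 with other blood markers, 38 without wells marked by other cell types and 36 to 155 when a plate was left out (36 without plate 2, 79 without plate 1). Without TMM the calls were 149 and 72 were higher in aqp8a.1-high wells, 48.3% against 56.6%. DESeq2 gave 42.5%. Without the plate block there were 110 calls and cdh6 stood at -0.321 (adjusted p = 0.497 by edgeR). In the comparison by cdh5, 142 calls became 89 without the block, 47 with DESeq2, 72 after thinning, 20, 22 and 29 within lyve1a-positive, aqp8a.1-high and neither-class wells, 28 without wells marked by other cell types and 25 to 189 without a plate (25 without plate 2). There cdh6 stayed called in 14 of 16 settings, and was not within lyve1a-positive wells (-0.683) or without replicate 2, with -1.523 to -1.095 when a plate was left out. The joint detection difference of 2.65 points was -7.37 in wells of at least 1000 UMIs and -0.659 to 5.51 when a plate was left out. Members detected fell from 35 to 23 at 2 UMIs in 2 plates. In the main fits, low counts left only cdh6 and itga5 tested between the classes, and these with itga6b and itga9 by cdh5. Of the 35 members detected, 26 had fewer than 30 UMIs.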
